A study of Ginkgo biloba with 9 samples.

Results

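Of 43834 gene models measured in autumn leaves of Ginkgo biloba, a seed plant that sheds its leaves each year, 36 had similar read counts in green and turning leaves and much higher read counts once the leaves were yellow. The 36 models were chosen on these same 9 libraries, from normalized counts, which are raw counts divided by a size factor that puts the libraries on a common scale. The mean of the turning libraries had to lie between 0.75 and about 4/3 times the mean of the green libraries, that is, between -0.42 and 0.41 on the log2 scale, and this range is called the window. The lowest yellow library had to reach 135 and at least 4 times the highest of the 6 green and turning libraries, and at least 1 green library had to reach 27. Models among the 100 with the highest mean in green or in yellow leaves were left out. Levels and differences between stages are therefore given for these models as a description.

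Leaves came from 3 healthy adult trees that grew outdoors, sampled on September 12 while green, on October 26 while turning and on November 8 when yellow, with 3 libraries per stage, numbered 1 to 3. No treatment or genotype is given beyond the stage, and each stage was sampled on a single date, so the stage and the calendar date cannot be told apart. The first interval was 44 days long and the second 13 days. The labels do not say which tree gave which library, so p-values reflect only how these libraries vary. Library totals lay between 23766331 and 32319325 counts. Libraries of a stage differed by more than counting error (chi-square per degree of freedom from 43.9 to 138), so none was the same library sequenced again. That does not show whether they came from different leaves or trees.

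Autumn senescence is an ordered dismantling of the leaf in which chlorophyll and the photosynthetic proteins are broken down and nitrogen and other nutrients are moved back into the tree. Carotenoids that remain after chlorophyll is lost give ginkgo leaves their yellow colour. In well-studied plants such as Arabidopsis, senescence runs through waves of gene activity, with transcription factors, hormone signals, proteases, transporters and stress genes among those that come on at different times. The files do not pair the identifiers with gene names, so no function is assigned to any of the 36 models, and marker genes of leaf cell types were not checked. Of the 36, 34 carry identifiers that begin with Gb_ and 2 (5.56%) have another prefix. That other prefix is found on 4.55% of all models and on 6.83% of the models tested. The identifiers of 2 members are given, and the other members are named by their place in the order of mean normalized count in yellow leaves, from 1 for the highest to 36 for the lowest. That order is of read numbers that are not corrected for gene length, so it does not rank transcript levels.

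Gb_18932, first in that order, had the most reads in yellow leaves. Its normalized counts were 935, 1164 and 1068 in the green libraries, 774, 657 and 1195 in the turning libraries and 24703, 20502 and 58165 in the yellow libraries. Green and turning libraries overlapped, all yellow libraries lay far above both, and yellow library 3 stood above the other yellow libraries. The stage means were 1056 ± 115 in green leaves, 875 ± 283 at the turning stage and 34457 ± 20639 in yellow leaves (SD, n = 3 libraries each). For yellow over turning leaves the log2 fold change was 5.26 ± 0.47 (SE), and 4.66 without yellow library 3. For turning over green leaves it was -0.26 ± 0.39. Within library numbers 1, 2 and 3, its yellow value was 31.9, 31.2 and 48.7 times its turning value. Among all gene models it stood at place 4372 by mean normalized count in green leaves, 5558 at the turning stage and 102 in yellow leaves.

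Gb_20337, at place 10, had the widest gap between its lowest yellow library and its highest other library, a factor of 44.1. It had normalized counts of 41.0, 9.10 and 31.6 in green leaves, 24.0, 46.8 and 36.97 at the turning stage and 2064, 2158 and 3278 in yellow leaves. Behind the green and turning values stood only 10 to 61 raw reads per library, against 1467 to 2135 in the yellow libraries. The yellow libraries differed from each other by a factor of 1.59, less than the factor of 5.14 between the lowest and the highest of the green and turning libraries. The log2 fold change was 6.08 ± 0.53 (SE) for yellow over turning and 0.39 ± 0.47 for turning over green leaves.

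**Figure D1:**
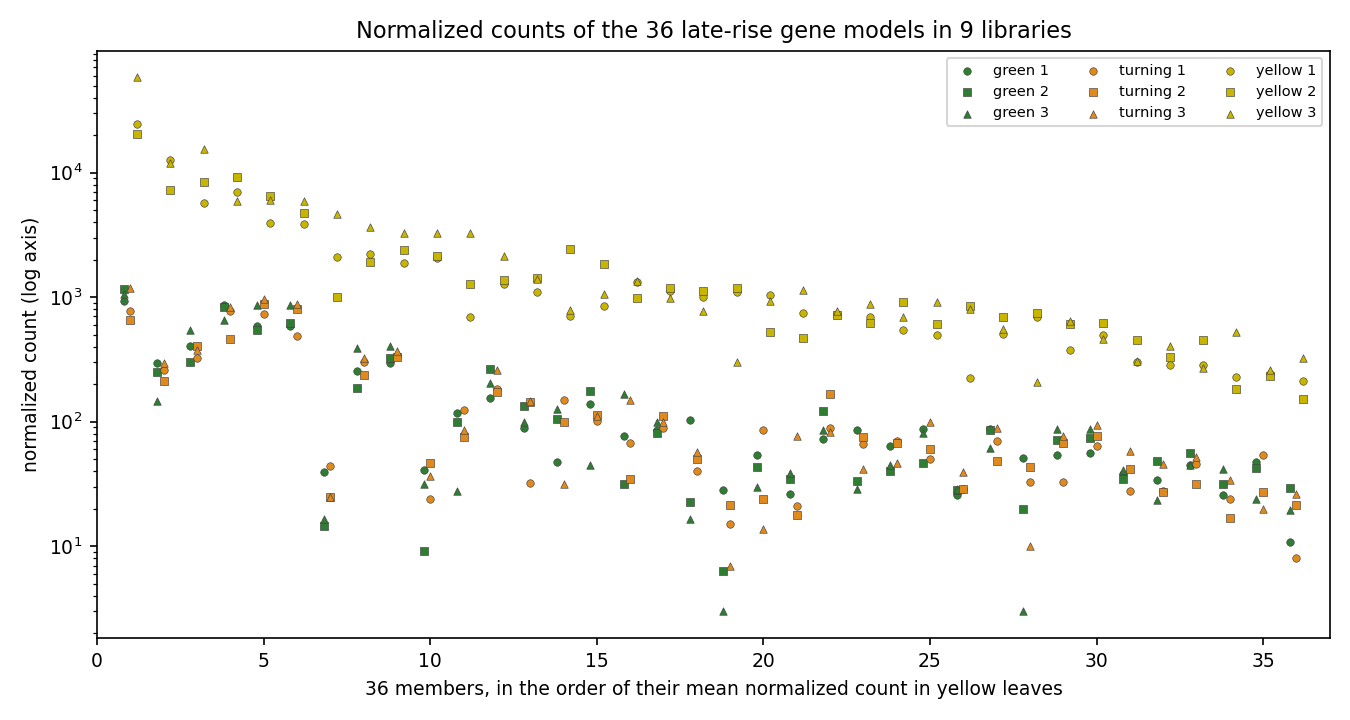
Normalized count (log axis) of each of the 36 members in every library, with members along the horizontal axis by their mean in yellow leaves. Green and turning points mix in nearly every column, while the yellow points lie at least 4.05 times above the highest of them, as the rule required.

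For the other members singled out here, the choice was made after their values were seen. Member 2 had 298, 249 and 148 normalized counts in green leaves, 262, 212 and 294 at the turning stage and 12649, 7289 and 12066 in yellow leaves. Member 7 had the largest ratio of stage means, with yellow 83.5 times turning and 110.02 times green. Its normalized counts were 39.7, 14.6 and 16.6 in green leaves, 44.0, 24.7 and 24.6 at the turning stage and 2098, 1008 and 4686 in yellow leaves, so that its yellow libraries were spread over a factor of 4.65. At the other end, member 5 had the smallest ratio of yellow to turning means, a factor of 6.36. Its normalized counts ran from 541 to 869 in green leaves, from 732 to 974 at the turning stage and from 3970 to 6454 in yellow leaves. Members 9 and 17 had the most even counts over the green and turning libraries together, with a factor of 1.37 between the lowest and the highest in each. These 6 libraries were within 2-fold of each other in 13 of the 36 members and at least 4-fold apart in 10, up to a factor of 17.0 in member 28. How many tested models showed such a spread was not counted, so these numbers say nothing particular about the members. In member 17 the yellow libraries were close as well, at 1126, 1180 and 981 normalized counts.

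Member by member, the 36 models covered a wide range of read numbers. Their mean normalized counts ran from 12.5 to 1056 in green leaves, with a median of 72.1, and from 14.4 to 875 in turning leaves, with a median of 69.5. In yellow leaves they ran from 229 to 34457, with a median of 913. Of the 36, 25 had a green mean under 100 and 17 had a yellow mean of at least 1000. None was among the 1000 models with the highest means in green leaves and 4 were in yellow leaves. The lowest yellow library exceeded the highest green or turning library by a factor of 4 to 5 in 14 members, of 5 to 10 in 16 members and of at least 10 in 6 members. Those 6 hold the places 1, 2, 3, 7, 10 and 19.

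The step from turning to yellow leaves had a median log2 fold change of 3.52 over the members, against -0.05 over all 23042 models tested. It ranged from 2.64 to 6.35, with standard errors from 0.17 to 0.95. All 36 members passed the test as higher in yellow than in turning leaves (quasi-likelihood test of edgeR, p adjusted by Benjamini-Hochberg from 0.000143 to 0.00866), where 20.5% of all tested models did. All 36 were also higher in yellow than in green leaves (edgeR adjusted p up to 0.00391), against 30.2% of all tested models, and the median log2 fold change was 3.54. Every yellow library lay above every green and turning library in all 36, as in 22.9% of the models tested. The rule used these contrasts, so the counts follow from the choice of the members. Measured from the median over all models, the members' median step from turning to yellow was 3.57 with TMM factors (trimmed mean of M values). With library totals alone it was 3.56. Other factors move members and all models almost equally on the log2 scale, so the closeness of these values was built in. It does not show that the step is independent of the scaling. Without subtracting that median, the step was 3.52 with TMM factors and 3.01 with library totals, where the median of all models was -0.56. In whole leaves, more RNA per cell of a type and more cells of that type in the sample cannot be told apart.

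**Figure D2:**
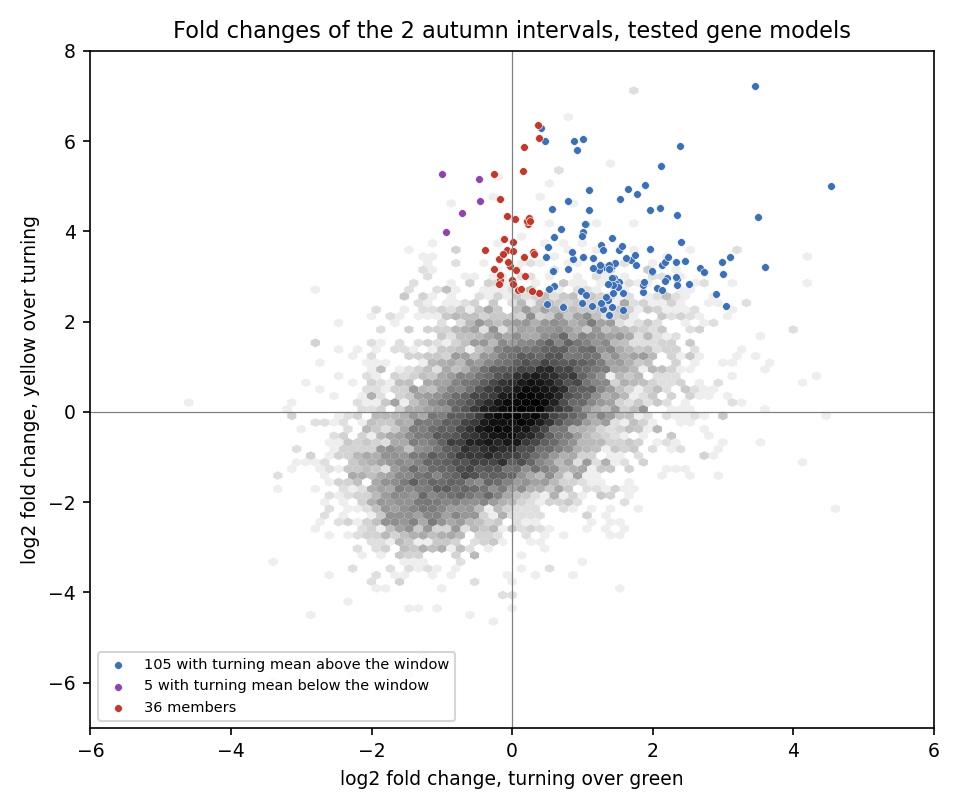
Log2 fold change from turning to yellow leaves against that from green to turning leaves, with all other tested models in grey on a log density scale. The 36 members (red) form a column around 0 on the horizontal axis with values from 2.64 to 6.35 on the vertical axis, between the 105 models with a turning mean above the window (blue) and the 5 below it (purple).

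From the model with only the stage, how level the members were between green and turning leaves is known only within wide limits. The ratio of turning to green means ran from 0.758 to 1.32, with a median of 1.02, and was above 1 in 20 of the 36. Green and turning libraries overlapped in 35 members, against 53.2% of all tested models. The exception, member 26, had 25.6, 28.2 and 28.6 normalized counts in green and 29.0, 28.9 and 39.3 in turning leaves. None of the 36 passed the test between turning and green leaves (edgeR adjusted p from 0.277 to 0.996), where 24.1% of all tested models passed. With the library number as a block 36.8% of all tested models passed and still 0 members. None of the 36 had an unadjusted p under 0.05, against 39.1% of all tested models, and none passed in DESeq2, against 29.3% of the models it tested. The rule held the ratio of these stages, so the counts of 0 follow from it. Without green library 1, member 18 passed as higher in turning leaves (log2 fold change 1.32 ± 0.28, edgeR adjusted p = 0.0317). In that member green library 1 had 104 normalized counts and green libraries 2 and 3 had 22.7 and 16.6, while the turning libraries had 40.0, 50.2 and 57.0.

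In the model with only the stage, the 95% interval of the turning-to-green fold change lay inside the window for 0 of the 36 members. For 31 members it reached beyond the window on both sides, and for 19 it took in a change of at least 2-fold in some direction. A missing call therefore does not show that a member stayed level. Intervals with the library number as a block were not computed. The standard error of the block fit was smaller in most members, as in member 6 (0.14 against 0.26). It was larger in the rest, as in member 11 (0.72 against 0.64). The counts of intervals above therefore hold for the model with only the stage, and whether block intervals would stay inside the window was not tested. Same-numbered libraries moved in the same direction from green to turning in all 3 pairs for 7 of the 36 (19.4%). The share over all tested models was not counted, so this number says nothing particular about the members. The median ratio of turning to green was 0.883, 1.03 and 1.195 within library numbers 1, 2 and 3.

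**Figure D3:**
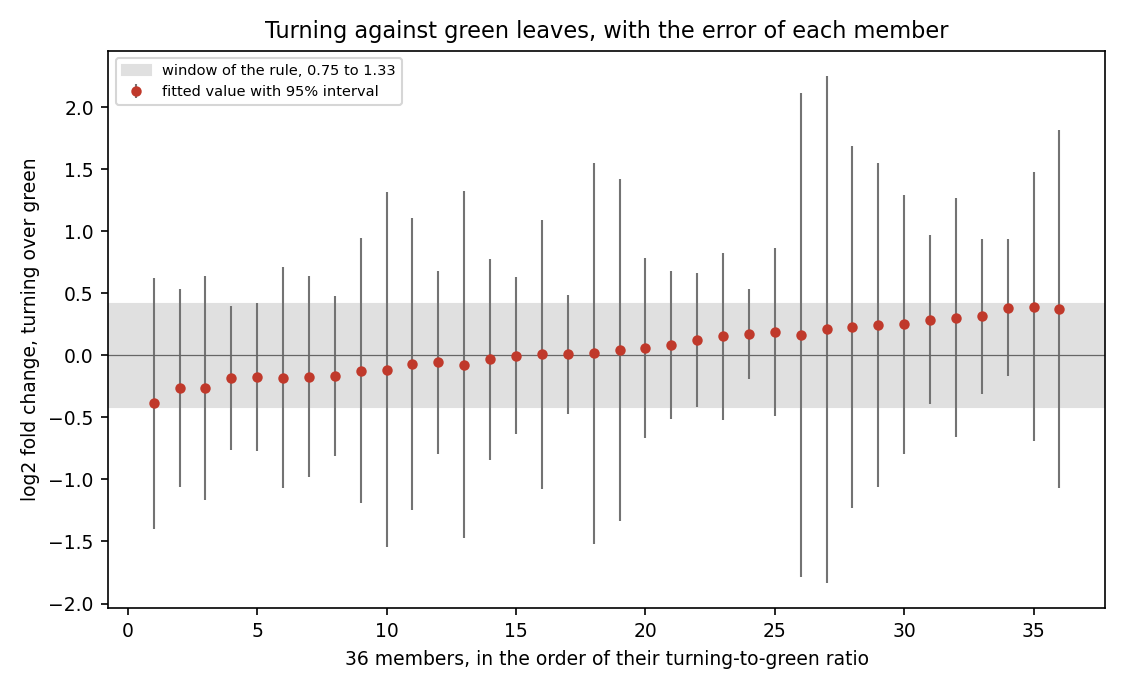
Fitted log2 fold change of turning over green leaves for each member with its 95% interval, from the model with only the stage. Members are ordered by the ratio of the means, and the window of the rule is in grey. No interval stays inside the grey band, and 31 of the 36 pass it on both sides.

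The rule was also applied with 1 turning or 1 yellow library left out, and the models it then picked were read in the library it had not used. Without yellow library 1, 2 or 3 it picked 50, 44 and 48 models, 35 of them members each time. In the yellow library left out, all of these models lay above their highest green or turning library, by a median factor of 5.09, 6.62 and 7.13. Over all tested models, yellow library 1, 2 and 3 lay above the highest green or turning library in 32.6%, 32.6% and 33.9%. Those models were not chosen for high values in the other yellow libraries, so these shares are not a like comparison for the picked models. The green and turning values in the factor of the picked models were used to pick them, so only the yellow value is new to the rule. The factor of 4 was reached there by 36 models in each case. A picked model that reaches it meets nearly the whole rule on all 9 libraries, so this count mostly restates the membership. The lowest factor in the yellow library left out was 2.12, 1.19 and 1.502.

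For the level part, a single turning library was set against the window, which the rule applies to the mean of the turning libraries. That is a narrower demand than lying above other libraries, so these counts cannot be compared with those of the yellow libraries. How many of all tested models met it was not counted. Without turning library 1, 2 or 3 the rule picked 36, 44 and 47 models, of which 28, 34 and 23 were members. In the turning library left out, the count was inside the window for 15, 18 and 15 of them. In turning library 3, 30 of the 47 lay above the window and 2 below it, with a median ratio of 1.55. In turning library 1, 11 lay above and 10 below, with a median of 0.963, and in turning library 2, 18 above and 8 below, with a median of 1.08. Of the 36 members, 15 stayed members whichever single library was left out.

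Within stages, the members varied from library to library in different ways. The coefficient of variation over the 3 libraries had a median of 27.8% in green leaves, 30.0% at the turning stage and 27.7% in yellow leaves. Among the members with a stage mean of at least 27, which were 32, 33 and 36 at the 3 stages, it was 26.4%, 29.1% and 27.7%. Over all tested models with such a mean it was 16.2%, 17.9% and 21.7%. Models of equal read number were not compared, so these values do not show that the members vary more than other models. The members' raw reads per library had medians of 82.5 in green and 77.5 in turning leaves and a lowest value of 4.

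Yellow libraries were within 2-fold of each other in 24 members and at least 3-fold apart in 6. Such spreads were not counted over all tested models, so these numbers describe the members only. Member 22 had the closest yellow values, at 726, 721 and 780 normalized counts. Yellow library 1 was low in member 26, with 225 normalized counts against 850 and 802. Yellow library 2 was high in member 14, with 2418 against 701 and 792. Yellow library 3 was the highest in 19 members, library 2 in 15 and library 1 in 2. Of the tested models with a yellow mean of at least 135, library 3 was highest in 40.7%, library 2 in 30.9% and library 1 in 28.4%.

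In some members the same library number was the lowest or the highest at every stage. How many members or tested models showed this was not counted, so the members below are examples only. Member 28 had 51.1, 20.01 and 3.01 normalized counts in green leaves, 33.0, 43.4 and 10.01 at the turning stage and 687, 744 and 207 in yellow leaves. Library 3 was thus the lowest of its stage at all 3 dates. The same held for member 19, with 28.3, 6.37 and 3.01 in green leaves, 15.01, 21.3 and 6.93 at the turning stage and 1091, 1178 and 299 in yellow leaves. Behind its green values stood only 42, 7 and 4 raw reads, and behind its turning values 15, 25 and 9. Library 3 of member 28 had 4 raw reads in green and 13 in turning leaves. The order of libraries at these stages thus rests on few reads in both members. In member 8 library 3 was the highest at all dates, with 393 in green leaves, 324 at the turning stage and 3634 in yellow leaves. In a model with stage and library number, 3 of the 36 members differed by library number (members 8, 28 and 29, edgeR F test, adjusted p = 0.0478, 0.0436 and 0.0489). That share of 8.33% is near the 6.80% of all tested models. The count was 1 with upper-quartile factors or library totals, 0 without green library 2 or 3, turning library 2 or yellow library 1 or 2, 1 without turning library 3 and 2 without any other single library. Member 19 did not pass (edgeR adjusted p = 0.0795). DESeq2 called 8 of the 36, a higher share than the 13.7% of all models it tested, so the nearness of the shares holds for edgeR only.

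**Figure D4:**
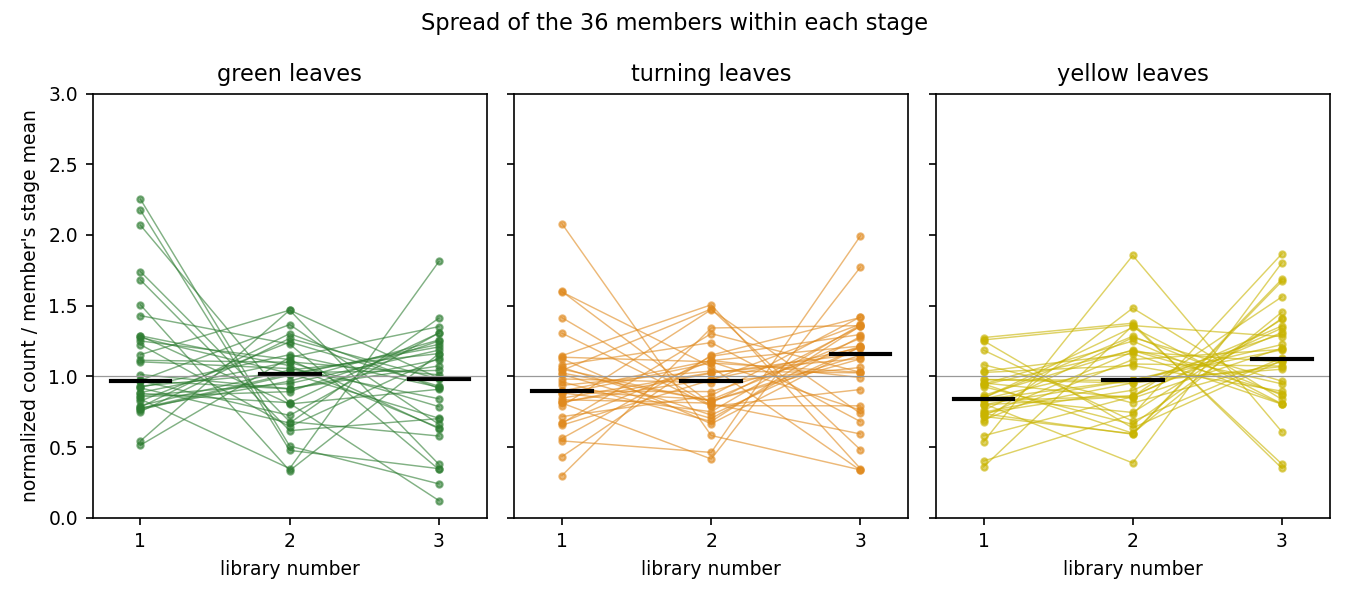
Normalized count of each library divided by the member's mean of the same stage, with lines joining the 3 libraries of a member and black bars at the medians over the 36 members. In yellow leaves the medians are 0.843, 0.973 and 1.12 for libraries 1, 2 and 3, and single members cross in all stages.

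As a group the members took a small share of the reads at all dates. They held 0.0290% ± 0.0022 of a library's counts in green leaves, 0.0251% ± 0.0033 at the turning stage and 0.287% ± 0.0807 in yellow leaves (SD, n = 3). Single yellow libraries stood at 0.243%, 0.238% and 0.380%. The reads were concentrated in a few models. Gb_18932 alone gave 17.1% ± 2.06 of the members' counts in green and 31.6% ± 8.96 in yellow leaves, where yellow library 3 reached 41.4%. The first 3 members in the order together gave 27.5% ± 0.93 in green and 51.5% ± 9.42 in yellow leaves. Without Gb_18932 the share of the other members in yellow leaves was 0.192% ± 0.0274. The median normalized count of the 36 was 64.1 ± 10.6 in green leaves, 71.6 ± 7.37 at the turning stage and 908 ± 101 in yellow leaves.

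**Figure D5:**
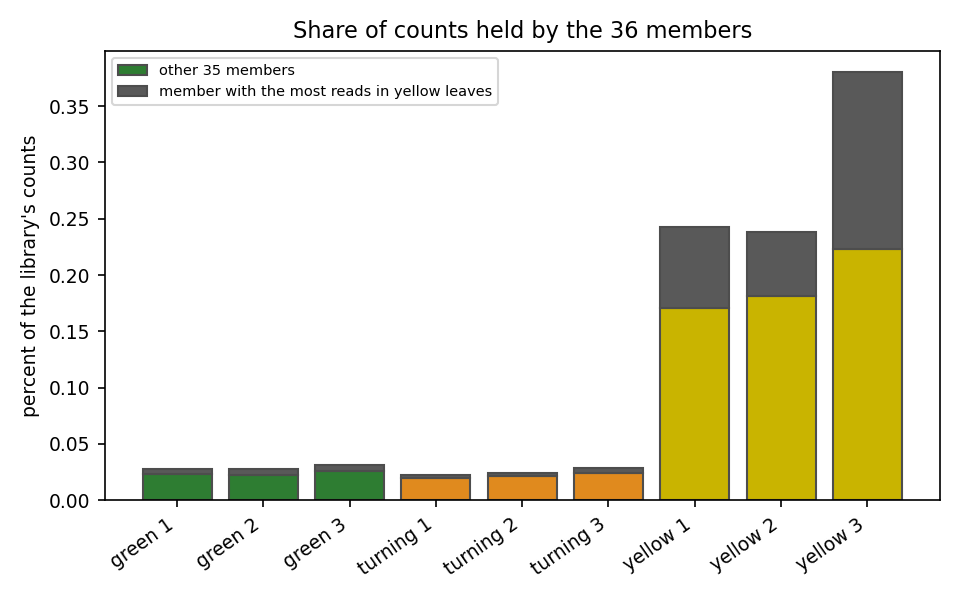
Percent of each library's counts that fell on the 36 members, with the member of highest yellow count in grey and the others in the colour of the stage. The 3 yellow bars stand at 0.243%, 0.238% and 0.380%, and the 6 other bars lie between 0.0226% and 0.0315%.

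Most models with a late rise of this size had a turning mean above the window. Of 146 models that met every part of the rule except the turning-to-green window, 36 fell inside the window, 105 above it and 5 below it. The 105 had a median turning-to-green ratio of 2.72. Their median ratio of yellow to turning means was 9.72, beside 11.7 for the members, and their median ratio of yellow to green means was 33.0, beside 11.9. Their median of mean normalized counts was 113 in green leaves, 381 at the turning stage and 5173 in yellow leaves. Together they held 0.125% ± 0.0183, 0.319% ± 0.0534 and 2.07% ± 0.433 of the counts in green, turning and yellow leaves (SD, n = 3). The coefficient of variation in yellow leaves had a median of 25.7% in the 105 and 27.7% in the members. Since the rule itself made the split, these values stand side by side with no test. The 5 models below the window had turning-to-green ratios from 0.495 to 0.719 and yellow means from 229 to 1528 normalized counts.

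Values close to the limits of the rule were as follows. The member nearest to the margin of 4 had a factor of 4.05, and the nearest model outside had 3.97. On the turning-to-green ratio, the nearest member had 0.758 and the nearest model outside 0.719 at the lower limit, and 1.32 against 1.34 at the upper limit. The lowest yellow library of the nearest member had 151.5 normalized counts against the limit of 135, and that of the nearest model outside had 133.9. The highest green library of the nearest member reached 28.3, and that of the nearest model outside 10.8. Gb_18932, at place 102 in yellow leaves, was just outside the 100 highest, the last of which had a mean of 34896 normalized counts.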

How the data were processed

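The authors deposited unnormalized counts of reads for each gene model in 9 libraries. CASAVA 1.8, HISAT2 2.0.4 and HTSeq 0.6.1 are named, without their roles, per the submitters' processing notes. The genome build, annotation and strand setting are not given in the sources. Members were chosen on counts divided by DESeq2 1.42.0 median-of-ratios size factors. Tests used edgeR 4.0.16 in R 4.3.3 on the raw counts: filterByExpr by stage (minimum count 10, minimum total 15; 23042 models, all 36 members included), TMM factors, glmQLFit with robust = TRUE and glmQLFTest, one model of the 9 libraries with only the stage in it (6 residual degrees of freedom). Tests were two-sided, with Benjamini-Hochberg adjustment over all models tested and a threshold of 0.05. Size factors averaged 1.30 for green, 1.16 for turning and 0.691 for yellow leaves, so levels depend on the scaling. The members, lists and tests were chosen with earlier results of these data known. Without gene names, the rule for named models took the member with the highest mean in yellow leaves and that with the largest ratio of lowest yellow to highest other library, and gene lists by name were not used. Standard errors are the fold change divided by the square root of F.

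Libraries of the same number deviated together from their stage means (r from 0.24 to 0.66 in 9 pairs, across genes; -0.52 to 0.03 in the 18 pairs of different numbers), so the numbers were read as pairing the libraries, from the data and not from the labels. Deviations from a stage mean cancel out within the stage, so positive values for same numbers force lower values for different numbers. The range of the 18 pairs is therefore no separate support. Paralogs, pseudogenes and overlapping models that might split or share reads could not be told from single genes. Reads carry no molecular identifiers, so counting error is a lower limit of the technical error.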

Additional observations from a re-analysis of the deposited data

How the results depend on the processing

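All 36 members were higher in yellow than in turning and in green leaves under each alternative run: DESeq2 size factors, upper-quartile factors or library totals in edgeR, the DESeq2 test, no filter, the replicate block, and each of the 9 libraries left out. The rule chose the members on these contrasts in the same libraries, so the calls follow from the choice and are a description. With the replicate block, 24.9% of all tested models were called higher in yellow than in turning leaves. Such shares were not counted for the other runs. With the replicate block 36, 36 and 0 members were called in yellow against turning, yellow against green and turning against green, with medians of 3.52 and 0.02 on the log2 scale for the first and the last, and the block changed no call. Leaving out 1 library gave 0 to 1 calls between turning and green leaves, and members' medians from 3.35 to 3.64 and from -0.06 to 0.10. With library totals the median step from turning to yellow was 3.01, with that of all models at -0.56, and the median of turning over green was -0.18. The number of members differing by library number was 1 with upper-quartile factors, 1 with library totals, 8 with DESeq2 and 0 to 2 with 1 library left out, fits chosen after seeing the data for the first and the last of these. Membership depended on the rule: library totals gave 19 models (14 of them members), TMM scaling 31, a margin of 3 times 72, a margin of 5 times 22, and the rule without 1 library 32 to 50, with 23 to 35 of the members kept. Models with the same late rise and a turning mean above the window numbered 46 with library totals and 92 to 180 with 1 library left out, 180 without turning library 3 and 159 without yellow library 1; these were chosen after seeing the data. The share of yellow counts was 0.0571% without the 10 members of highest yellow count and, chosen after seeing the data, 0.192% without the first, and 0.241% to 0.312% with 1 yellow library left out. Among the alternatives for Gb_18932 and Gb_20337, the log2 fold change from turning to yellow ran from 4.66 to 5.55 and from 5.56 to 6.30. The cause of these differences was not tested.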
